A study of Homo sapiens with 15 samples.

Results

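The 10 genes described here encode enzymes of the methionine cycle, of transsulfuration and of histidine breakdown, and were taken by symbol from the deposited count table: BHMT, BHMT2, GNMT, MAT1A, MAT2A, AHCY, CBS, CTH, UROC1 and FTCD. All 10 were among the 35012 symbols of that table, and all 10 were among the 14621 genes that passed a filter on low counts and were tested. The cells were HepG2, an established human liver cancer line, harvested for RNA sequencing 5 days after transduction with lentivirus carrying short hairpin RNAs and selection with puromycin. The double group (4 libraries) received hairpins against both BRG1 and BRM, the BRG1 group (4 libraries) the hairpin against BRG1 alone, the BRM group (3 libraries) the hairpin against BRM alone, and the NS group (4 libraries) a non-silencing hairpin. BRG1 (gene SMARCA4) and BRM (gene SMARCA2) are ATPases of SWI/SNF, a chromatin remodelling complex that holds either the one or the other. All cells came from 1 line, the NS cells were transduced and selected as well, and the labels do not give the hairpin sequences or say whether libraries of a group came from separate transductions, so that p-values cover the spread of these libraries and possibly only technical spread.

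The methionine cycle supplies S-adenosylmethionine, the methyl donor of most methylation reactions. Methionine adenosyltransferase makes it from methionine, methyltransferases turn it into S-adenosylhomocysteine, AHCY hydrolyses that to homocysteine, and homocysteine is either methylated back to methionine or passed through transsulfuration to cysteine. Hepatocytes carry forms of these enzymes that many other cells lack, MAT1A, GNMT and BHMT among them, and they also degrade histidine to glutamate, a route that delivers a one-carbon unit to tetrahydrofolate.

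BHMT and GNMT changed in opposite directions in the single knockdowns. In BRM libraries UROC1, BHMT, GNMT and MAT1A were higher than in NS libraries by 22.3-fold, 10.7-fold, 6.12-fold and 2.74-fold. These were 4 of the 10 members, beside 7.66% of all genes tested that were called higher and 6.26% called lower. The filter on low counts did not keep UROC1 when run without the BRM libraries. The 10 genes were chosen with earlier results of these data known, so such counts are descriptions. In BRG1 libraries GNMT, BHMT and FTCD were lower than in NS libraries, by 4.93-fold, 3.24-fold and 2.18-fold, 3 members beside 9.97% of all genes called lower and 12.5% called higher. In double libraries 0 of the 10 passed the test against NS, beside 11.8% of all genes called higher and 9.9% called lower. MAT2A, AHCY and BHMT2 passed it in none of the comparisons between groups. Levels are in CPM, the gene's share of the library total after TMM scaling of that total, and a gene is called at an adjusted p under 0.05, from edgeR's quasi-likelihood test with Benjamini-Hochberg adjustment over all genes tested. Log2 fold changes are given ± SE.

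**Figure D1:**
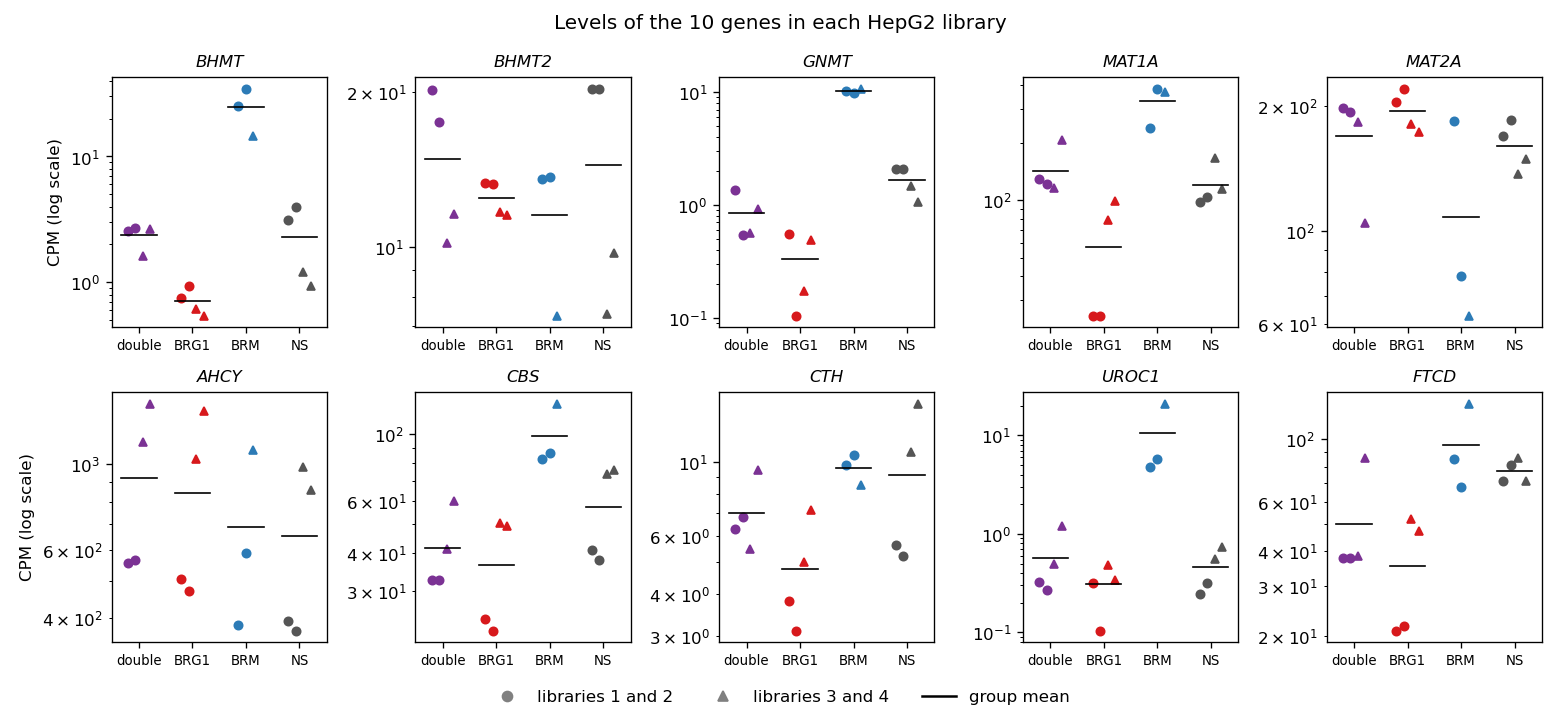
Level of each of the 10 genes in each library, in CPM on a log scale, with the double, BRG1, BRM and NS groups from left to right, circles for libraries 1 and 2, triangles for libraries 3 and 4, and a line at the group mean. The BRM libraries of BHMT, GNMT, MAT1A, CBS and UROC1 lie above all NS libraries, and the BRG1 libraries of GNMT and FTCD lie below all of them.

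BHMT methylates homocysteine back to methionine with betaine as the methyl donor. It had 2.57, 2.70, 1.62 and 2.63 CPM in double libraries, 0.750, 0.931, 0.609 and 0.541 CPM in BRG1 libraries, 25.0, 34.6 and 14.6 CPM in BRM libraries, and 3.11, 4.004, 1.199 and 0.930 CPM in NS libraries. The BRM libraries were all above every other library, and the BRG1 libraries were all below the double libraries and met the NS range where BRG1 2 and NS 4 were level. The log2 fold change was 3.42 ± 0.45 in BRM against NS (adjusted p = 0.000289, edgeR) and -1.70 ± 0.44 in BRG1 against NS (adjusted p = 0.0128, edgeR). In double against NS it was 0.04 ± 0.42 (adjusted p = 0.969, edgeR). The fall after BRG1 knockdown rested on low counts, 19, 18, 14 and 11 in BRG1 libraries against 64, 50, 13 and 20 in NS libraries, and limma-voom did not call it (adjusted p = 0.0892).

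BHMT2, the neighbouring paralog, which uses S-methylmethionine as its methyl donor, did not share this pattern. It had 20.2, 17.5, 10.2 and 11.6 CPM in double libraries, 13.3, 13.2, 11.7 and 11.6 CPM in BRG1 libraries, 13.5, 13.7 and 7.33 CPM in BRM libraries, and 20.3, 20.3, 7.38 and 9.71 CPM in NS libraries. All pairs of groups overlapped, and within each group the libraries numbered 1 and 2 were the higher ones. Its log2 fold change against NS was 0.04 ± 0.33 in double, -0.22 ± 0.33 in BRG1 and -0.33 ± 0.36 in BRM libraries, and none was called. BHMT2 lies at chr5:79069717-79089466 and BHMT at chr5:79111779-79132290 (GENCODE v29, GRCh38), both on the plus strand with 22312 bases between them, and both lie within the span of DMGDH on the opposite strand. DMGDH exons cover 6.79% of the BHMT exon bases and none of those of BHMT2. Since the strand setting of the counting is not given, reads from the shared bases cannot be assigned to either strand. Reads shared by the paralogs were divided by estimation, which makes their separate values uncertain.

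The promoter sequences of these neighbours are shown because the genes lie side by side and only BHMT was called. They are RefSeq sequences on GRCh38.p14, written 5' to 3' up to the base before the RefSeq start. That of BHMT is chr5:79111559-79111808 on the plus strand, with a match to TATAAA in capitals that begins 29 bases before that start. GENCODE v29 starts the BHMT gene further upstream, so that the last 30 bases of this stretch, the match among them, lie inside the gene as placed above. That of BHMT2 is chr5:79069517-79069716 on the plus strand, cut where the GENCODE gene begins.
BHMT: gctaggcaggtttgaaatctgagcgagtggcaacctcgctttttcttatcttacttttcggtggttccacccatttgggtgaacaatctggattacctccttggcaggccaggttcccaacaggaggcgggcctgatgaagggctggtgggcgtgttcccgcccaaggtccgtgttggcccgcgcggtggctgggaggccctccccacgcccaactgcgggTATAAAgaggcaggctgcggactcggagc
BHMT2: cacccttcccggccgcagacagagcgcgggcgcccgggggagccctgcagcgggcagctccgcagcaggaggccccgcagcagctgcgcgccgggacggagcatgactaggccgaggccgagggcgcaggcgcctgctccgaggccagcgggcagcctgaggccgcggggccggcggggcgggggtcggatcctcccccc
The 250 bases before each start were searched for 9 motifs on both strands. TATAAA occurred in 10.7% of the 35114 promoters searched, CCAAT in 32%, TGANTCA (AP-1) in 6.57%, CACGTG (E-box) in 6.35%, TGATGNAA (ATF4) in 3.14%, TGTTTAC (FOXA) in 2.98%, CAAAGTCCA (HNF4A) in 0.325%, TTGCGCAA (C/EBP) in 0.131% and the HNF1 palindrome in 0.0057%. The 250 bases of BHMT2 held none of them, with a GC content of 81.6% and a CpG observed-to-expected ratio of 0.82. The BHMT stretch had 60.4% GC and a ratio of 0.619, beside medians of 58% and 0.558 over all promoters. A match is a description of these letters and was not tested as a binding site.

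GNMT, glycine N-methyltransferase, consumes S-adenosylmethionine to methylate glycine and is an abundant liver enzyme. It had 1.37, 0.540, 0.562 and 0.915 CPM in double libraries, 0.552, 0.103, 0.174 and 0.491 CPM in BRG1 libraries, 10.2, 9.85 and 10.8 CPM in BRM libraries, and 2.09, 2.08, 1.48 and 1.07 CPM in NS libraries. The BRM libraries were above all others with an SD of 0.472 CPM around a mean of 10.3 CPM, and the BRG1 libraries were below all NS libraries. Its log2 fold change was 2.61 ± 0.44 in BRM against NS (adjusted p = 0.00141, edgeR) and -2.30 ± 0.46 in BRG1 against NS (adjusted p = 0.00237, edgeR). In double against NS it was -0.99 ± 0.43 (adjusted p = 0.121, edgeR), and DESeq2 gave an adjusted p of 0.0486 for the same comparison. The counts behind the BRG1 values were 14, 2, 4 and 10, against 43, 26, 16 and 23 in NS libraries.

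On the scale of log2 CPM with a prior count of 2, which narrows differences at low counts such as those of UROC1, BHMT and GNMT had the widest ranges of group means among the members with a mean of at least 2 CPM. Over the 15 libraries, the genes whose log2 CPM followed BHMT most closely were ALAD, of heme synthesis, with a Pearson r of 0.980, the glutamate transporter gene SLC1A2 (0.966) and the centrin gene CETN2 (0.966). Those closest to GNMT were ACAA2, of mitochondrial fatty acid oxidation (0.960), TMEM41A (0.949) and GALT, of galactose metabolism (0.949). BHMT and GNMT themselves had an r of 0.902, and BHMT and BHMT2 one of 0.101. These are descriptions of libraries that share groups and sets.

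MAT1A and MAT2A encode the catalytic subunits of methionine adenosyltransferase, MAT1A being the adult liver form and MAT2A the form of most other tissues. MAT1A had 129, 122, 116 and 206 CPM in double libraries, 24.9, 24.9, 78.8 and 99.5 CPM in BRG1 libraries, 238, 384 and 366 CPM in BRM libraries, and 97.5, 104, 166 and 114 CPM in NS libraries. The BRM libraries were above all others. BRG1 libraries 1 and 2 were below every other library, while BRG1 4 overlapped the NS range. The rise in BRM against NS was 1.45 ± 0.43 (adjusted p = 0.0369, edgeR). That call was lost without any 1 of 8 libraries, namely double 1, 2 or 3, BRM 2 or 3, or NS 1, 2 or 4, with log2 fold changes of 1.28 to 1.65 over all 15 omissions and adjusted p-values up to 0.161. In BRG1 against NS the value was -1.08 ± 0.41 (adjusted p = 0.072, edgeR), and with the replicate number as a block it was -1.26 (adjusted p = 0.0082, edgeR).

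MAT2A had 198, 194, 182 and 104 CPM in double libraries, 204, 220, 181 and 174 CPM in BRG1 libraries, 184, 78.2 and 62.6 CPM in BRM libraries, and 169, 185, 137 and 149 CPM in NS libraries. BRM 2 and BRM 3 were below every other library, and BRM 1 lay within the NS range. No comparison of MAT2A was called, with -0.57 ± 0.32 in BRM against NS (adjusted p = 0.277, edgeR) and 0.85 ± 0.32 in BRG1 against BRM (adjusted p = 0.0527, edgeR). Replicate numbers paired the BRG1 and BRM libraries, and with the block the second value was 1.04 (adjusted p = 0.00527, edgeR). Without BRM 1, MAT2A was called lower in BRM than in NS libraries, by -1.18 on the log2 scale (adjusted p = 0.00806, edgeR).

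The ratio of MAT2A to MAT1A counts within a library does not depend on the scaling of library totals. It was 1.53, 1.59, 1.58 and 0.508 in double libraries, 8.22, 8.83, 2.30 and 1.74 in BRG1 libraries, 0.771, 0.204 and 0.171 in BRM libraries, and 1.73, 1.78, 0.827 and 1.30 in NS libraries. MAT2A counts exceeded MAT1A counts in all BRG1 libraries, and MAT1A counts exceeded MAT2A counts in all BRM libraries. The NS and double groups each held libraries on both sides of 1. The 2 transcripts differ in length, so the ratio compares groups and is no measure of molar abundance.

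**Figure D2:**
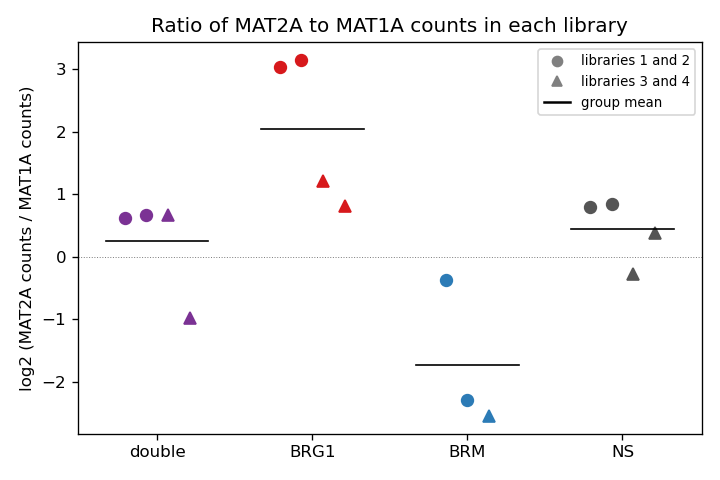
Log2 ratio of MAT2A to MAT1A counts in each library, with groups from left to right double, BRG1, BRM and NS, circles for libraries 1 and 2, triangles for libraries 3 and 4, and a line at the group mean. The group means are 0.241 (double), 2.046 (BRG1), -1.74 (BRM) and 0.434 (NS), and a dotted line marks equal counts.

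The promoters of GNMT and MAT1A are shown because these genes were called in BRM libraries together with BHMT. Both carry CCAAT or its reverse complement ATTGG, in capitals, as did 32% of all promoters searched. The motif also occurred for MAT2A, CBS and CTH, which were not called in BRM against NS, and the BHMT promoter lacked it. GNMT lies at chr6:42960758-42963880 on the plus strand and its promoter is chr6:42960504-42960753, and MAT1A lies at chr10:80271820-80289684 on the minus strand and its promoter is chr10:80289659-80289908, of which the last 26 bases lie inside the GENCODE gene.
GNMT: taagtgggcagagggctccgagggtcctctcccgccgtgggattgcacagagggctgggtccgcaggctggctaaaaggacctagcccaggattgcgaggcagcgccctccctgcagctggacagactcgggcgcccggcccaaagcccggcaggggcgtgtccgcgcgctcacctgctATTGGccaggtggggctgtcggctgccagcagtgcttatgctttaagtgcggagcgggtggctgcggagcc
MAT1A: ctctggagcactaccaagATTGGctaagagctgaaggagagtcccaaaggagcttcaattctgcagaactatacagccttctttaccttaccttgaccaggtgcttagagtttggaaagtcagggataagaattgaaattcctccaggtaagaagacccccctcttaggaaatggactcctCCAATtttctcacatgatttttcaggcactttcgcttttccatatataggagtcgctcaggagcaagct
The match in GNMT begins 71 bases before the start, and those in MAT1A begin 232 and 69 bases before it. The 2 stretches differ in composition, with 68.4% GC and a CpG ratio of 0.623 for GNMT and 44.8% GC and a CpG ratio of 0.16 for MAT1A. Neither held any of the other 8 motifs.

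AHCY, the hydrolase that clears S-adenosylhomocysteine, was the most abundant member. It had 556, 564, 1138 and 1431 CPM in double libraries, 504, 472, 1028 and 1372 CPM in BRG1 libraries, 385, 591 and 1083 CPM in BRM libraries, and 393, 371, 983 and 859 CPM in NS libraries. Libraries 3 and 4 were above libraries 1 and 2 within each group, and all pairs of groups overlapped. Its log2 fold change against NS was 0.50 ± 0.47 in double, 0.37 ± 0.47 in BRG1 and 0.08 ± 0.50 in BRM libraries, none called. With the replicate block, the double value of 0.51 was called (adjusted p = 0.0144, edgeR).

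CBS joins homocysteine and serine to cystathionine, the first step of transsulfuration. It had 32.6, 32.6, 41.3 and 59.7 CPM in double libraries, 24.1, 22.0, 50.6 and 49.2 CPM in BRG1 libraries, 82.4, 86.4 and 126 CPM in BRM libraries, and 41.1, 37.9, 73.4 and 75.9 CPM in NS libraries. All BRM libraries were above all others, yet the BRM difference from NS, 0.79 ± 0.35, was not called (adjusted p = 0.161, edgeR). CBS was called lower in double than in BRM libraries (-1.24 ± 0.35, adjusted p = 0.0223, edgeR) and in BRG1 than in BRM libraries (-1.43 ± 0.35, adjusted p = 0.00565, edgeR). The call in double against BRM was lost without double 1, 2 or 3 or without BRM 2 or 3, with adjusted p-values up to 0.105. With the replicate block, CBS was called lower than in NS after BRG1 knockdown (-0.67, adjusted p = 0.00172, edgeR) and after double knockdown (-0.43, adjusted p = 0.0245, edgeR). CBSL, a near-identical copy at chr21:6444869-6468040, had 9, 3, 2 and 2 counts in double libraries, 3, 12, 5 and 3 in BRG1 libraries, 5, 3 and 0 in BRM libraries, and 44, 64, 6 and 2 in NS libraries. CBSL reached 11.9% of the summed counts of both copies in NS 2, and summing the copies left the number of members called the same in each of the 7 contrasts.

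CTH cleaves cystathionine to cysteine. It had 6.29, 6.81, 5.48 and 9.44 CPM in double libraries, 3.83, 3.10, 5.00 and 7.17 CPM in BRG1 libraries, 9.75, 10.5 and 8.53 CPM in BRM libraries, and 5.63, 5.21, 10.7 and 14.96 CPM in NS libraries. The BRG1 libraries were all below the BRM libraries. BRG1 1, 2 and 3 were also below every NS library, and the NS libraries lay on both sides of the BRM range. Its only call was in BRG1 against BRM (-1.01 ± 0.37, adjusted p = 0.0458, edgeR), and 10 of the 15 omissions of a library ended that call, namely of double 1, 2 or 3, BRG1 1, 2 or 3, BRM 1, 2 or 3, or NS 3, with adjusted p-values up to 0.136. It was also lost without the filter on low counts (adjusted p = 0.0782, edgeR) and within libraries 3 and 4, where the change was -0.44 (adjusted p = 0.413, edgeR), beside -1.55 within libraries 1 and 2. BRG1 against NS gave -0.94 ± 0.34 (adjusted p = 0.0658, edgeR), called with the replicate block (adjusted p = 0.00826, edgeR) and by DESeq2 (adjusted p = 0.0372).

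UROC1, urocanase, carries out the second step of histidine breakdown and was nearly absent outside the BRM group. Its counts were 6, 4, 14 and 21 in double libraries, 8, 2, 11 and 7 in BRG1 libraries, 59, 116 and 455 in BRM libraries, and 5, 4, 6 and 16 in NS libraries. In CPM these were 0.328, 0.270, 0.492 and 1.202 in double, 0.316, 0.103, 0.479 and 0.344 in BRG1, 4.76, 5.80 and 21.0 in BRM, and 0.243, 0.320, 0.554 and 0.744 in NS libraries. Every BRM library was above every other library, and BRM 3 was well above the other BRM libraries. The log2 fold change in BRM against NS was 4.48 ± 0.66 (adjusted p = 0.000625, edgeR), and without BRM 3 it was 3.44 (adjusted p = 0.00292, edgeR). Double and BRG1 libraries differed from NS by 0.29 ± 0.64 and -0.57 ± 0.66, neither called. The filter asked for at least 0.512 CPM in at least 3 libraries, which for UROC1 was met by 2 double, 0 BRG1, 3 BRM and 2 NS libraries. The same filter run on the 12 libraries outside the BRM group did not keep UROC1, so that its place among the genes tested depended on the group where it was high. It kept the other 9 members.

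UROC1 lies at chr3:126481281-126517773 on the minus strand, and its promoter, chr3:126517774-126518023, is shown because it had the highest fold of the 10 members in BRM against NS.
UROC1: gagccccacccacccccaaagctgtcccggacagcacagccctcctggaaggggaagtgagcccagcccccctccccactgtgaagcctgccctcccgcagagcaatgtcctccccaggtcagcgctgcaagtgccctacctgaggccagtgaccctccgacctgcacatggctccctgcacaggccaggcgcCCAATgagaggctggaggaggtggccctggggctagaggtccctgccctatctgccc
It held 1 CCAAT match, in capitals, that begins 57 bases before the start, and none of the other 8 motifs. Its GC content was 68% and its CpG ratio 0.179, and MAT1A and UROC1 had the lowest CpG ratios of the 5 promoters shown.

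FTCD catalyses the last steps of the histidine route, moving the formimino group to tetrahydrofolate. It had 37.9, 37.8, 38.4 and 85.8 CPM in double libraries, 20.8, 21.7, 52.2 and 47.1 CPM in BRG1 libraries, 85.3, 67.9 and 134 CPM in BRM libraries, and 70.9, 80.9, 85.9 and 71.2 CPM in NS libraries. All BRG1 libraries were below all NS libraries, and 3 of the 4 double libraries were too, with double 4 at the top of the NS range. FTCD fell by 1.12 ± 0.35 on the log2 scale in BRG1 against NS (adjusted p = 0.032, edgeR), and the call was lost without BRG1 1 or 2 or without NS 2 or 3, with adjusted p-values up to 0.0809. In double against NS it was -0.63 ± 0.35 (adjusted p = 0.227, edgeR), -0.73 with the replicate block (adjusted p = 0.0415, edgeR) and -1.07 without double 4 (adjusted p = 0.0316, edgeR). BRM libraries overlapped NS libraries, with 0.31 ± 0.37 (adjusted p = 0.662, edgeR). FTCD lies at chr21:46136262-46155567 on the minus strand, and exons of FTCD-AS1 on the opposite strand cover 3.75% of its exon bases.

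The other enzymes of the route did not follow one pattern. HAL, histidase, the first step, had 32, 17, 22 and 31 counts in double libraries, 5, 5, 14 and 19 in BRG1 libraries, 28, 20 and 28 in BRM libraries, and 0, 4, 2 and 10 in NS libraries. It was called higher in double (2.45 ± 0.71, adjusted p = 0.0231, edgeR) and in BRM libraries (2.59 ± 0.74, adjusted p = 0.0311, edgeR) against NS, on counts this low. The double change was 3.44 within libraries 1 and 2 and 1.75 within libraries 3 and 4. HAL reached at most 0.465 CPM in NS libraries, under the filter's 0.512 CPM, and at least 0.773 CPM in double and 1 CPM in BRM libraries. Its place among the genes tested therefore depended on the groups where it was high. HAL falls outside the rule for named genes and was named after its values were seen. AMDHD1, the third enzyme, had 32.8, 30.6, 23.6 and 19.1 CPM in double libraries, against 9.78 to 13.7 CPM in NS libraries. Of the 3 comparisons with NS it was called in that of double libraries (1.21 ± 0.20, adjusted p = 0.000589, edgeR), with -0.01 ± 0.20 in BRG1 and 0.17 ± 0.21 in BRM libraries. The double libraries were also higher than BRG1 libraries (1.21 ± 0.20, adjusted p = 0.00132, edgeR) and BRM libraries (1.04 ± 0.22, adjusted p = 0.00373, edgeR). HNMT, which methylates histamine, was lower in BRG1 libraries (-0.97 ± 0.19, adjusted p = 0.00213, edgeR), and HDC, which makes histamine, was not tested because of low counts.

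**Figure D3:**
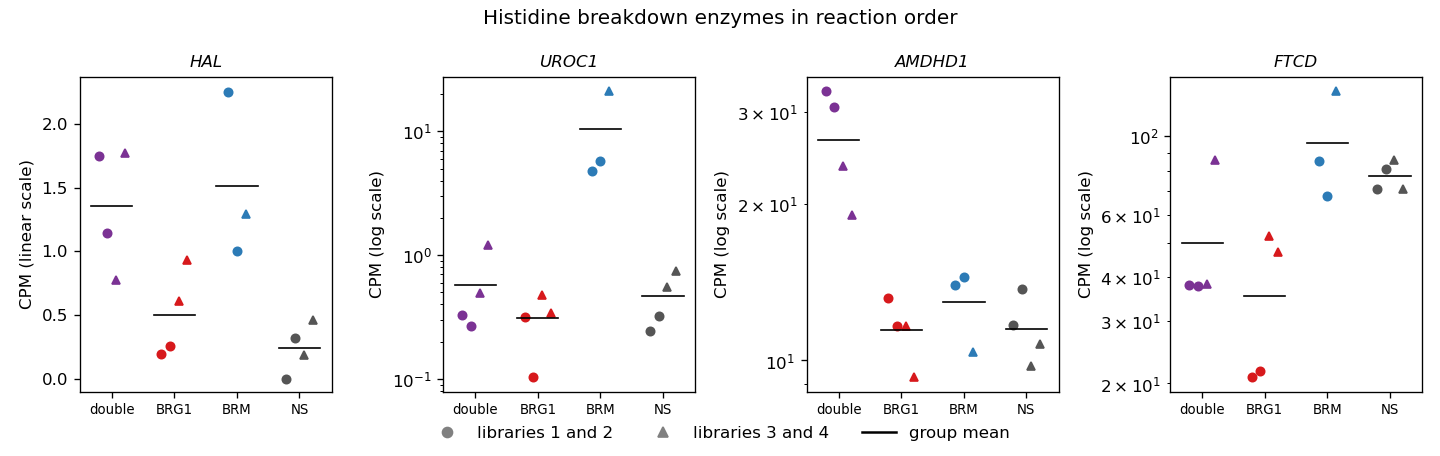
Levels of the 4 enzymes of histidine breakdown in reaction order, in CPM per library, with HAL on a linear scale because 1 NS library had 0 counts and the others on log scales, groups double, BRG1, BRM and NS from left to right, and lines at group means. UROC1 is high in BRM libraries, AMDHD1 in double libraries and HAL in both, while FTCD is low in the BRG1 and in 3 of the 4 double libraries.

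Per kilobase of the longest principal GENCODE transcript, the mean level in NS libraries was 304 CPM per kb for AHCY, 56.8 for MAT2A, 40.5 for FTCD, 35.3 for MAT1A, 21.9 for CBS, 7.04 for BHMT2, 5.05 for CTH, 1.57 for GNMT, 0.923 for BHMT and 0.148 for UROC1. FTCD and MAT1A differed by less than the SD of MAT1A (9.15 CPM per kb), and BHMT2 and CTH by less than the SD of BHMT2 (3.35 CPM per kb). In BRM libraries the mean level of BHMT was 9.89 and that of GNMT 9.60 CPM per kb, both above BHMT2 at 5.62 CPM per kb, with SDs of 4.005, 0.440 and 1.76 CPM per kb. In NS libraries the order of BHMT and BHMT2 was the other way round.

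In double against NS, where edgeR called 0 members, 1 member had an unadjusted p under 0.05. DESeq2 called 1 member and limma-voom 0, beside 23.9% and 21.5% of all genes in either direction. The replicate block gave 3 members beside 35.6% of all genes. In BRG1 against NS the block gave 6 members in place of 3, beside 36.4% of all genes, so that more calls were made across the whole table. The median log2 fold change of the members was 0.04 in double, -0.79 in BRG1 and 0.55 in BRM libraries, and over all genes tested it was 0.02, 0.02 and 0.03. These comparisons share the 4 NS libraries.

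**Figure D4:**
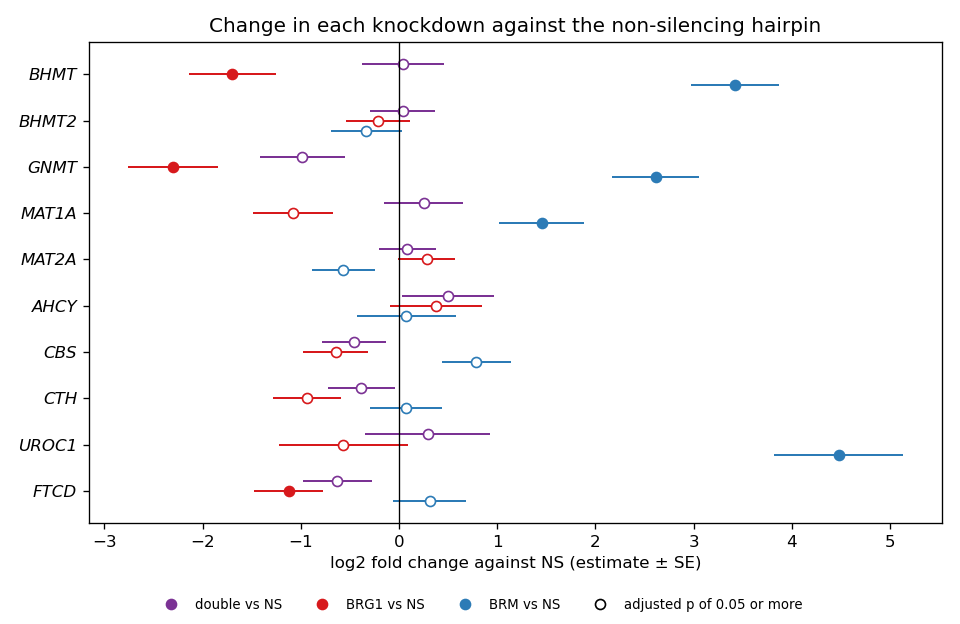
Log2 fold change against NS (x axis, estimate ± SE) of each of the 10 genes in double, BRG1 and BRM libraries, from top to bottom within a gene. Filled points have an adjusted p under 0.05 (edgeR), namely BHMT, GNMT and FTCD in BRG1 and BHMT, GNMT, MAT1A and UROC1 in BRM libraries.

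The knockdowns were also compared with each other. In double against BRG1 libraries 1 member was higher, BHMT (1.73 ± 0.44, adjusted p = 0.021, edgeR), and 0 lower, beside 4.1% and 6.72% of all genes. Every double library of BHMT and of MAT1A was above every BRG1 library, and MAT1A gave 1.33 ± 0.41 (adjusted p = 0.051, edgeR). The BHMT call was lost without double 1 or 2 or without BRG1 1, 3 or 4, with adjusted p-values up to 0.0567, and limma-voom gave 0.0651. In double against BRM libraries 4 members were lower and 0 higher, beside 9.74% and 9.32% of all genes. These were BHMT (-3.38 ± 0.45), GNMT (-3.60 ± 0.46), UROC1 (-4.19 ± 0.64) and CBS, with adjusted p-values of 0.000128, 9.89e-05, 0.000398 and 0.0223 (edgeR). Without BRM 3 the UROC1 value was -3.19.

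In BRG1 against BRM libraries 7 members were lower and 0 higher, beside 16.7% and 17.2% of all genes. BHMT differed by -5.12 ± 0.49, GNMT by -4.92 ± 0.49, UROC1 by -5.04 ± 0.67 and MAT1A by -2.53 ± 0.44, with adjusted p-values of 3.53e-06, 5.35e-06, 5.36e-05 and 0.00048 (edgeR). FTCD (-1.43 ± 0.37, adjusted p = 0.00798, edgeR), CBS and CTH made up the rest. All 7, picked here because they were called, had every BRG1 library below every BRM library. The share of all genes separated in this way was not counted. Without BRM 3 the UROC1 value was -4.05.

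The interaction asked whether the double knockdown differed from the sum of the single ones (double minus BRG1 minus BRM plus NS, log2 scale). edgeR called 0 of 10 members, beside 0.103% of all genes higher and 0.397% lower, while 2 members had an unadjusted p under 0.05 and DESeq2 called 1, beside 3.03% of all genes. For UROC1 the term was -3.62 ± 0.91 (adjusted p = 0.101, edgeR). It was called by DESeq2 (adjusted p = 0.0102) and with the replicate block (-3.92, adjusted p = 0.00478, edgeR). It was also called within libraries 1 and 2 (-3.79, adjusted p = 0.0213, edgeR) and with a term for the library set (-3.82, adjusted p = 0.00128, edgeR). The block, libraries 1 and 2 and the set term called 4.33%, 11.2% and 7.26% of all genes. Within libraries 3 and 4, with their 1 BRM library, the term was -3.93. It was not called by limma-voom, with DESeq2 size factors in edgeR, without the filter or with CBS and CBSL summed. The term was called in 0 of the 15 omissions of a library (adjusted p = 0.0532 to 0.235, edgeR). For BHMT it was -1.69 ± 0.62 (adjusted p = 0.27, edgeR). For MAT1A it was -0.13 ± 0.59 (adjusted p = 0.984, edgeR).

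In each group AHCY was higher and BHMT2 lower in libraries 3 and 4 than in libraries 1 and 2. Not every member was separated in this way, and the sets of GNMT interleaved in double and BRG1 libraries. The labels do not say what the numbers mark. The share of counts from mitochondrial genes was 1.33 to 3.55% in libraries 3 and 4 and 4.97 to 8.33% in libraries 1 and 2. Fitted within libraries 3 and 4 and, in second place, within libraries 1 and 2, the BRG1 change from NS was -0.89 and -2.07 for BHMT, -1.95 and -2.56 for GNMT, -0.69 and -2.01 for MAT1A, and -0.70 and -1.84 for FTCD. In the same order, the BRM change from NS was 3.72 and 3.09 for BHMT, 3.03 and 2.27 for GNMT, 1.31 and 1.63 for MAT1A, and 4.88 and 4.24 for UROC1, with 1 BRM library among libraries 3 and 4. Members called after a single knockdown kept their direction in both sets, but within libraries 3 and 4 the BRG1 changes of BHMT (adjusted p = 0.147, edgeR) and FTCD (adjusted p = 0.185, edgeR) were not called. The difference between sets was called for 1 member, BHMT2 after BRG1 knockdown, which was 0.39 within libraries 3 and 4 and -0.61 within libraries 1 and 2 (difference 1.04 ± 0.24, adjusted p = 0.0431, edgeR), beside 2.49% of all genes. For MAT1A after BRG1 knockdown the difference was 1.36 ± 0.40 (adjusted p = 0.0829, edgeR). CTH in BRM against NS was -0.68 within libraries 3 and 4 and 0.90 within libraries 1 and 2, a difference of -1.50 ± 0.44 (adjusted p = 0.0848, edgeR). Each set is part of the libraries that gave the calls, so the kept directions are no independent replication. The part of what the sets mark in these results was not tested.

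**Figure D5:**
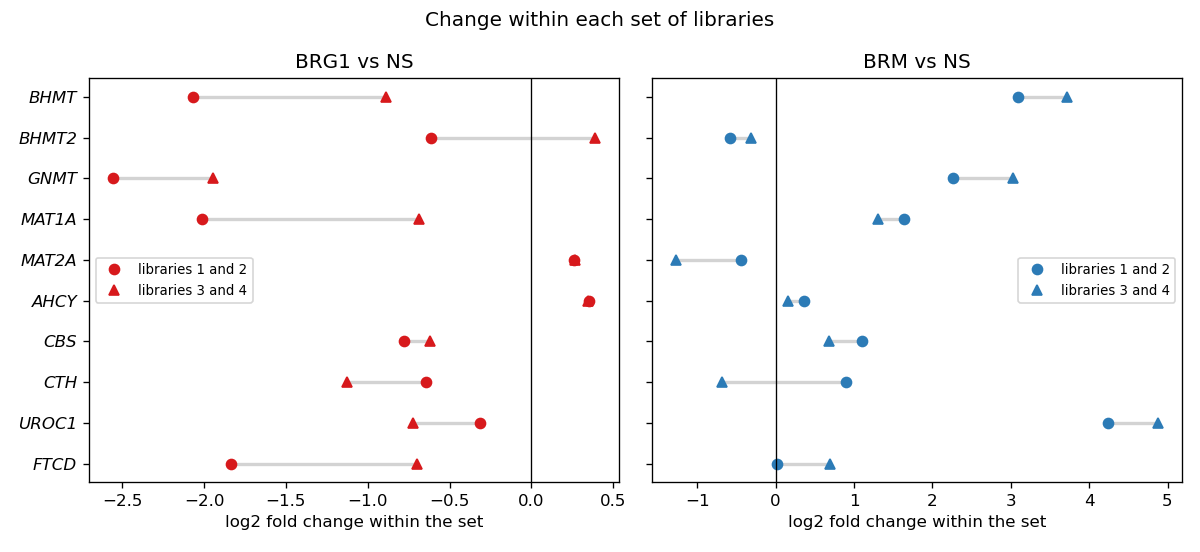
Log2 fold change of each of the 10 genes against NS (x axis) in BRG1 (left panel) and BRM libraries (right panel), fitted within libraries 1 and 2 (circles) and within libraries 3 and 4 (triangles). BHMT, GNMT, MAT1A and FTCD lie below 0 in both sets after BRG1 knockdown, BHMT, GNMT, MAT1A and UROC1 lie above 0 in both sets after BRM knockdown, and CTH changes sign between sets after BRM knockdown.

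Another 50 genes of the surrounding pathways were counted as a list, and 48 were tested. In double libraries 6 were higher and 7 lower than in NS, in BRG1 libraries 4 higher and 12 lower, and in BRM libraries 7 higher and 1 lower. Of the 48, 12.5% were higher and 14.6% lower in double libraries, beside 11.8% and 9.9% of all genes. In BRG1 libraries 8.33% were higher and 25% lower, beside 12.5% and 9.97%, and in BRM libraries 14.6% were higher and 2.08% lower, beside 7.66% and 6.26%. The list's median log2 fold changes were -0.16, -0.25 and 0.20. With the replicate block 25 were called in double and 26 in BRG1 libraries, where calls over all genes were 35.6% and 36.4%, against 21.6% and 22.5% without it. The BRM count fell to 2 without BRM 2, to 5 without NS 2, to 3 without NS 3 and to 4 without NS 4, and the double count fell to 8 without NS 3.

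Among 13 folate genes, 1 was higher and 1 lower in double, 5 lower in BRG1, and 1 higher and 1 lower in BRM libraries. ALDH1L1, a liver dehydrogenase of 10-formyltetrahydrofolate, had 18.8, 18.8, 20.4 and 42.6 CPM in double libraries, 2.68, 2.998, 11.7 and 15.5 CPM in BRG1 libraries, 115, 174 and 202 CPM in BRM libraries, and 56.4, 53.9, 47.5 and 37.3 CPM in NS libraries. It changed by -2.57 ± 0.50 in BRG1 (adjusted p = 0.00198, edgeR) and by 1.75 ± 0.50 in BRM against NS (adjusted p = 0.032, edgeR), the directions seen for BHMT and GNMT. TYMS, thymidylate synthase, was lower in BRG1 libraries (-0.68 ± 0.16). SHMT1, cytosolic serine hydroxymethyltransferase, was lower in double libraries (-1.15 ± 0.36), and MTHFD2L was higher there (1.01 ± 0.33). SHMT1 was lower in BRG1 libraries as well (-1.33 ± 0.36, adjusted p = 0.0149, edgeR). MTHFD1L, a mitochondrial folate enzyme, was lower in BRM libraries (-0.88 ± 0.25).

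Among 9 genes of choline, betaine and glycine, 1 was higher and 3 lower in double, 4 lower in BRG1, and 2 higher in BRM libraries. CHDH oxidises choline towards betaine, the substrate of BHMT, and was lower in double (-0.81 ± 0.14) and in BRG1 libraries (-0.79 ± 0.14). ALDH7A1, which can oxidise betaine aldehyde, was lower in BRG1 (-0.75 ± 0.19) and higher in BRM libraries (1.04 ± 0.20). PIPOX, which oxidises sarcosine, the product of GNMT, had 10.8, 14.3, 15.5 and 32.7 CPM in double libraries, 6.67, 9.20, 21.3 and 28.6 CPM in BRG1 libraries, and 77.8, 69.4, 117 and 101 CPM in NS libraries. All double and all BRG1 libraries were below all NS libraries, with changes of -2.32 ± 0.46 and -2.48 ± 0.46. AMT, of the glycine cleavage system, was lower in double libraries (-0.96 ± 0.24). DMGDH, which oxidises dimethylglycine, the other product of BHMT, was higher in BRM libraries (0.84 ± 0.23), which overlapped the NS libraries. DMGDH was also called higher in double libraries (0.74 ± 0.22, adjusted p = 0.0226, edgeR). In BRG1 libraries it gave 0.61 ± 0.21 (adjusted p = 0.0549, edgeR), so the rise was not particular to BRM knockdown.

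Among 14 genes of S-adenosylmethionine use and methionine salvage, 13 were tested, of which 1 was higher and 2 lower in double, 2 higher and 1 lower in BRG1, and 2 higher in BRM libraries. AHCYL2, a relative of AHCY, was lower in double libraries (-1.59 ± 0.18). ADI1 of the salvage pathway was higher in double (0.84 ± 0.19) and BRM libraries (0.75 ± 0.20), and MTAP, its first enzyme, was lower in double libraries (-0.43 ± 0.14). MAT2B, the regulatory partner of MAT2A, was higher in BRG1 libraries (0.50 ± 0.17), as was spermine synthase, SMS (0.69 ± 0.23), while APIP was lower there (-0.90 ± 0.23). ADK, which removes the adenosine that AHCY releases, was higher in BRM libraries (0.68 ± 0.14).

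Among 10 genes downstream of cysteine, 1 was higher and 1 lower in double, 2 higher and 1 lower in BRG1, and 1 higher in BRM libraries. CDO1, which oxidises cysteine, had 1.69, 0.877, 1.30 and 1.89 CPM in double libraries, 1.26, 1.34, 0.957 and 1.18 CPM in BRG1 libraries, 22.3, 18.5 and 12.8 CPM in BRM libraries, and 4.13, 5.69, 1.66 and 1.91 CPM in NS libraries. It changed by -1.21 ± 0.38 in double, -1.49 ± 0.38 in BRG1 and 2.41 ± 0.39 in BRM libraries. The double libraries overlapped the NS libraries, and within libraries 3 and 4 the change was -0.24 in double (adjusted p = 0.609, edgeR) and -0.79 in BRG1 libraries (adjusted p = 0.125, edgeR), beside -1.89 and -1.90 within libraries 1 and 2. SQOR oxidises hydrogen sulfide in mitochondria. It had 91.2, 73.7, 124 and 121 CPM in double libraries, 125, 108, 174 and 208 CPM in BRG1 libraries, 9.91, 21.3 and 17.3 CPM in BRM libraries, and 12.2, 11.4, 20.2 and 21.2 CPM in NS libraries. All double and BRG1 libraries were above all NS libraries, by 2.65 ± 0.31 and 3.24 ± 0.32, while BRM libraries overlapped them. GCLC, of glutathione synthesis, was higher in BRG1 libraries (0.49 ± 0.17). All values given in these 4 lists without a p had an adjusted p under 0.05 in edgeR. Of the 31 calls against NS that the rule for named genes gave in all 5 lists, 31 kept their direction in both library sets. Within libraries 1 and 2, 29 were called, and fewer within libraries 3 and 4, which hold 1 BRM library. Each set is part of the libraries that gave these calls, so this is no independent replication. The share of all called genes that did so was not counted.

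Hepatocyte markers differed between the same groups. The summed level of 10 hepatocyte markers was 11060 to 25990 CPM in double, 5373 to 18770 CPM in BRG1, 41440 to 49470 CPM in BRM and 22750 to 34470 CPM in NS libraries. In this sum ALB, APOB and SERPINA1 reached the highest levels, at most 19300, 14500 and 8820 CPM. Of these 10, 2 were lower in double and 6 lower in BRG1 libraries, beside 9.9% and 9.97% of all genes. In BRM libraries 1 was higher (FGB, a fibrinogen chain) and 1 lower (TTR, transthyretin), beside 7.66% and 6.26% of all genes. The summed cholangiocyte markers, mostly KRT19, were 1295 to 2776 CPM in double, 2879 to 5016 CPM in BRG1, 515.3 to 1028 CPM in BRM and 1023 to 1505 CPM in NS libraries, and CFTR reached at most 0.0971 CPM. The summed stromal markers were 20.7 to 39.7, 56.7 to 244.5, 13.4 to 25.9 and 31.3 to 71.7 CPM in the same order of groups, with COL3A1, DCN and LUM at most at 0.4 CPM. The summed blood and endothelial markers, mostly CD68, were 56.2 to 97.9, 36.5 to 64.5, 58.9 to 81.4 and 35.2 to 46.6 CPM, with CD3E at 0 in all libraries. The part of these markers in the results for the 10 genes was not tested, and in bulk RNA fewer cells of a kind and less RNA per cell cannot be told apart.

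Total counts were 11500149 to 27187991 per library. SMARCA4 averaged 46.2 CPM in double, 27.8 in BRG1, 346 in BRM and 307 CPM in NS libraries, and SMARCA2 averaged 2.57, 25.8, 4.38 and 39.2 CPM in the same order, so each targeted gene was low in the libraries labelled for it. SMARCA4 was less reduced in double libraries, all above the BRG1 libraries (0.73 ± 0.16, adjusted p = 0.00858, edgeR). SMARCA2 in BRG1 libraries lay below all NS libraries without being called (-0.61 ± 0.23, adjusted p = 0.0712, edgeR). Double against BRG1 and the interaction thus compare groups with unlike SMARCA4 levels, and the part of this was not tested. In the authors' deposited table of the BRG1 comparison, 5 members had an adjusted p under 0.05, all lower. The authors' deposited table for BRM has 4 such members, all higher, and the authors' deposited table for double has 0. The authors' deposited table for BRG1 lists MAT1A (log2 fold change -1.10, adjusted p = 0.0389) and CTH (-0.97, adjusted p = 0.0352) beside BHMT, GNMT and FTCD.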

How the data were processed

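Processed RNA-seq files of 15 HepG2 libraries were used. The table of estimated counts, as deposited, has whole numbers for each gene symbol and is not scaled between libraries. Per the submitters' processing notes the tools were kallisto and DESeq2 and the build GRCh38. Versions, annotation and strand are not given in the sources used. The authors' comparison tables hold, per the file headers, a log2 fold change and an adjusted p-value per gene, and name no reference group.

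Counts were used as deposited in edgeR 4.0.16 (R 4.3.3), with filterByExpr on the group, TMM factors, group means of all 15 libraries in 1 fit and the robust quasi-likelihood F test, two-sided, in 7 contrasts. Genes under an adjusted p of 0.05 (Benjamini-Hochberg over the 14621 genes tested) are called. The SE is the size of the log2 fold change divided by the square root of F. The fit was tested on simulated data with known changes. Alternatives were DESeq2 1.42.0, voom in limma 3.58.1, DESeq2 size factors in edgeR, no filter, only the 2 groups compared, the replicate block, either library set alone, a set term, CBS and CBSL summed, and each library left out. The difference between sets was added after seeing the data. Replicate numbers from the labels were read as pairing 2 groups if the deviations of each same-numbered pair from their means had a correlation over 0.1. The correlations were 0.427 to 0.565 in BRG1 with NS, 0.179 to 0.454 in double with NS and 0.104 to 0.532 in BRG1 with BRM. The part of the library sets in these correlations was not tested.

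The 10 genes and all lists were chosen with earlier results of these data known. From each of the 5 pathway lists, up to 3 called genes (smallest adjusted p, mean level of 2 CPM or more) were named per comparison with NS. Gene positions are from GENCODE v29 on GRCh38, and promoters from RefSeq on GRCh38.p14. All 10 symbols were found in both.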

Additional observations from a re-analysis of the deposited data

Results flagged for a closer look

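In 4 of the 30 groups of 4 libraries tested over the 10 genes, 1 library lay far from the other 3, by its gap to the nearest library divided by the range of the group, above Dixon's critical value. All 4 were in the double group. For BHMT, double 3 was low, at 1.62 CPM beside 2.57 to 2.70 CPM in the other double libraries (0.881). For MAT1A, double 4 was high, at 206 CPM beside 116 to 129 CPM (0.847). For MAT2A, double 4 was low, at 104 CPM beside 182 to 198 CPM (0.838). For FTCD, double 4 was high, at 85.8 CPM beside 37.8 to 38.4 CPM (0.989). Chance alone marks about 1 group in 20, and the 10 genes were measured in the same libraries. Double 4 also had a summed hepatocyte marker level of 25990 CPM, beside 11060 to 15810 CPM in the other double libraries, and the part of this in its values was not tested.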

How the results depend on the processing

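No member called in a comparison changed direction under any alternative, and of 687 values recomputed without leaving out a single library 590 kept their direction and their side of the threshold. Against NS, the number of members called in double libraries was 1 by DESeq2, with libraries 1 and 2 only and with libraries 3 and 4 only, and 3 with the replicate block or the library set term, against 0, while calls over all genes were 23.9%, 29.5%, 34.3%, 35.6% and 38.6%, against 21.6%. In BRG1 libraries it was 5 by DESeq2, 6 with the block, 7 with libraries 1 and 2 only and 7 with the set term, against 3, while calls over all genes were 23%, 36.4%, 39% and 39.1%, against 22.5%. In BRM libraries it was 7 with libraries 1 and 2 only, against 4, while calls over all genes were 28.1%, against 13.9%. Pathway genes called numbered 25, 20, 24 and 28 in double libraries (block, libraries 1 and 2, libraries 3 and 4, set term), 26, 26 and 28 in BRG1 libraries (block, libraries 1 and 2, set term), and 20, 23, 13 and 22 in BRM libraries (block, libraries 1 and 2, libraries 3 and 4, set term), where all genes gave 28.4%, 28.1%, 20.8% and 32%, against 13.9%, with 5 without the filter and 3 with only the groups compared. In double against BRG1, 3 members were called by DESeq2, with the block and with the set term, and 6 with libraries 1 and 2, against 1. Calls over all genes there were 14.6%, 22.3%, 25.5% and 27.5%, against 10.8%. In double against BRM, 8 were called with the block and with libraries 1 and 2, and 7 with the set term, against 4. Calls over all genes there were 36.3%, 31.2% and 39.1%, against 19.1%. For the interaction the counts were 1 (DESeq2), 2 (block), 4 (libraries 1 and 2) and 3 (set term), against 0. Calls over all genes there were 3.03%, 4.33%, 11.2% and 7.26%, against 0.499%. Libraries 3 and 4 hold 1 BRM library, which their fit assumes to vary like the other groups. The fits on fewer libraries and with added terms differ in the libraries or the spread they use, and the cause of each shift was not tested. Block values for BRM against NS, double against BRG1 and double against BRM rest on numbers that did not pair those groups (lowest correlations 0.0733, 0.0578 and 0.0133).

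Leaving out 1 library gave 0 to 1 members in double, 2 to 5 in BRG1 and 3 to 5 in BRM libraries against NS, with 8 to 14, 11 to 17 and 2 to 9 pathway genes. It gave 0 to 1 in double against BRG1, 3 to 6 in double against BRM, 6 to 8 in BRG1 against BRM and 0 to 0 for the interaction. Without double 4 the double count was 1, and without BRG1 4 the BRG1 count was 5.

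Values that changed sign were all uncalled in the fit of all 15 libraries. With libraries 1 and 2 only, log2 fold changes were -0.42 (BHMT), -0.11 (BHMT2) and 0.27 (CTH) in double against NS, -0.038 (BHMT2) and -0.0035 (AHCY) in BRG1 against BRM, and 0.70 (MAT1A) and -0.16 (AHCY) for the interaction. With libraries 3 and 4 only they were -0.041 (MAT2A) in double against NS, 0.39 (BHMT2) in BRG1 against NS, -0.68 (CTH) in BRM against NS, -0.11 (BHMT2) in double against BRG1, and -0.063 (AHCY) and -0.38 (FTCD) for the interaction. The interaction was 0.13 for MAT1A by limma-voom, and -0.18 with the replicate block and -0.16 with the set term for AHCY. Over the 15 omissions of a library the values in double against NS ran from -0.24 to 0.38 (BHMT), -0.20 to 0.25 (BHMT2), -0.024 to 0.44 (MAT1A), -0.047 to 0.21 (MAT2A) and -0.37 to 0.67 (UROC1). Those of AHCY ran from -0.020 to 0.64 in BRG1 against NS, -0.46 to 0.36 in BRM against NS, -0.17 to 0.47 in double against BRG1, -0.033 to 0.79 in BRG1 against BRM and -0.23 to 0.60 for the interaction. The others ran from -0.17 to 0.42 (CTH) and -0.050 to 0.46 (FTCD) in BRM against NS, -0.037 to 0.39 (CBS) in double against BRG1, -0.14 to 0.26 (BHMT2) in BRG1 against BRM, and -0.15 to 0.55 (FTCD) and -0.32 to 0.35 (MAT1A) for the interaction. Low counts limit BHMT, GNMT and UROC1 in BRG1 libraries, where group totals were 62, 30 and 28 counts.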
